A study of Caenorhabditis elegans with 2 samples.

Results

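The autophagy genes of Caenorhabditis elegans were followed on 2 spotted 2-colour arrays. They were chosen by name: every gene called atg with a number, together with lgg-1, lgg-2, bec-1 and unc-51. Of 16 such genes in the RefSeq annotation, 11 had a value on both arrays, each from 1 probe, among 14777 genes measured in all. The genes atg-3, atg-4.1, atg-4.2, atg-5 and unc-51 were not analysed here. Names alone define the group, but it was put forward with values of these arrays known, so its ratios are given as a description and support nothing beyond themselves.

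The tested RNA came from glp-4 larvae at the L2 stage, the second larval stage, in 2 preparations hybridised to 1 array each. The other channel of both arrays held mRNA of a mixed wild-type population as the reference. glp-4 mutants have a germ line of few cells when grown at the temperature that blocks the gene, and L2 larvae have not yet formed gametes. The labels used here do not name the allele, the growth temperature or the dyes. The effects of genotype and of stage cannot be told apart, since the channels differ in both. In whole-worm RNA, fewer cells of a type and less RNA per cell cannot be told apart either.

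Autophagy delivers cytoplasm to the lysosome. A protein kinase complex starts the process, a lipid kinase complex marks the membrane, and a lipid-transfer and scramblase system feeds the growing cup. Enzymes related to the ubiquitin pathway then attach small ubiquitin-like proteins of the Atg8 family to the membrane, where they help it to close and to capture cargo. In C. elegans autophagy is known for clearing paternal mitochondria and P granule proteins in the early embryo and for its part in larval survival of starvation, dauer formation and lifespan.

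Each deposited value was read as the log2 ratio of glp-4 L2 to the reference, which is the likely direction and not a stated one. The descriptions name glp-4 L2 before the reference, and the yolk and major sperm protein lists, used to read the direction, had medians of -6.98 and -3.43 and lay below 0 on both arrays. Every sign below would turn if that reading were wrong. The 2 arrays had medians of 0.10 (preparation 1) and 0.02 (preparation 2) over all genes. They correlated at r = 0.53 across genes, which are not independent replicates. Nothing states that the preparations came from separate cultures, so the spread between them may be technical, and 2 arrays limit the precision. Intensities were not used, so signal over background is unknown.

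All 11 autophagy genes had a mean log2 ratio below 0 over the arrays, between -2.02 for lgg-2 and -0.18 for atg-10. Of them, 9 were below 0 on both arrays, 0 were above 0 on both and 2 had opposite signs. Over all genes 30.8% were below 0 on both arrays, 37% above 0 on both and 32.2% of opposite sign. The autophagy median was -0.91 in preparation 1 and -1.37 in preparation 2. Relative to the median of all genes on the same array these medians were -1.02 and -1.39. The median of the means was -1.08, which corresponds to 47.4% of the reference, beside 0.08 for all genes.

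**Figure D1:**
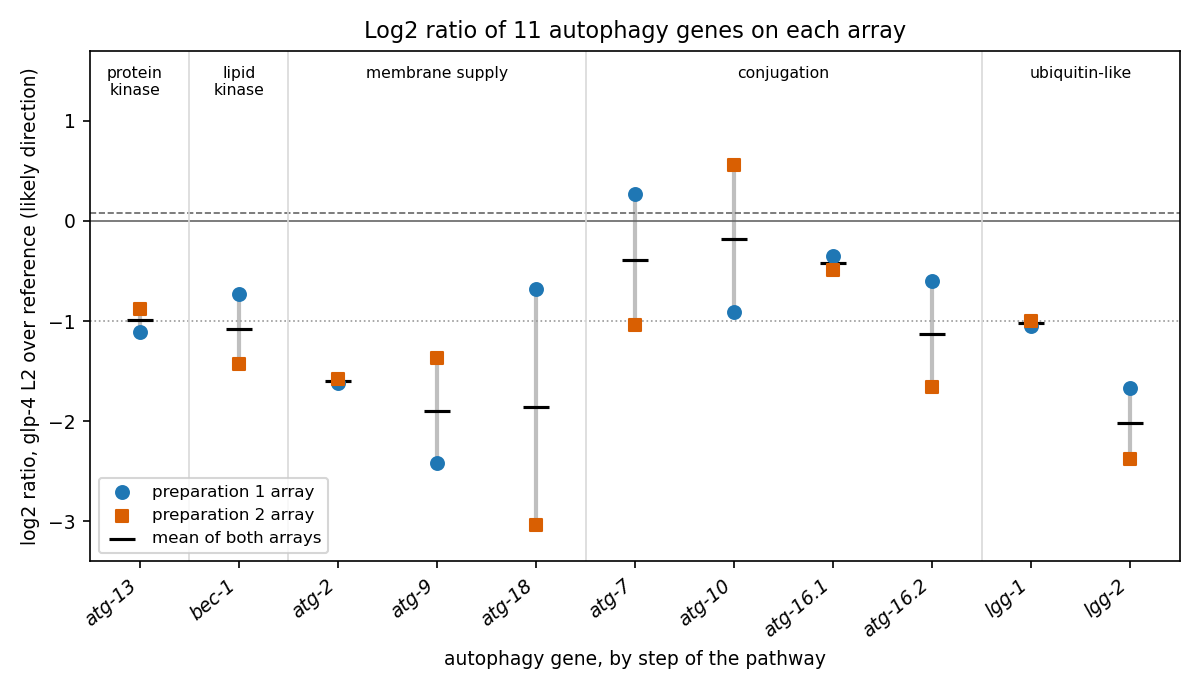
Log2 ratio of glp-4 L2 over reference (vertical axis, likely direction) for 11 autophagy genes in the order of the pathway. Circles are the preparation 1 array, squares the preparation 2 array, and black dashes their mean; the dotted line marks 2-fold below the reference and the dashed line the median of all genes (0.08). Both points of atg-2, atg-9 and lgg-2 lie under the dotted line, while those of atg-7 and atg-10 lie on either side of 0.

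The lowest mean belonged to lgg-2, one of the worm's 2 Atg8-family proteins and the homolog of mammalian LC3. The preparation 1 array gave lgg-2 a log2 ratio of -1.67 and the preparation 2 array one of -2.37 (mean -2.02 ± 0.50; all errors given are SD with n = 2). In linear terms glp-4 L2 RNA gave 31.5% and 19.3% of the reference signal. Both arrays thus placed lgg-2 more than 2-fold below the reference, at the 6.42 and 3.57 percentile of all genes. The other member of the family, lgg-1, is the homolog of mammalian GABARAP and the usual marker of autophagosomes in worms. It was at -1.05 and -0.99 (mean -1.02 ± 0.04), or 48.4% and 50.2% of the reference. The preparation 1 value was just past 2-fold and the preparation 2 value just short of it. The ratio of lgg-2 was below that of lgg-1 by 0.62 log2 units in preparation 1 and 1.38 in preparation 2, and the ranges of the 2 genes over the arrays did not overlap.

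The membrane supply genes atg-2, atg-9 and atg-18 had a median of -1.62 in preparation 1 and -1.58 in preparation 2. The ubiquitin-like pair was at -1.36 and -1.68, so the arrays differed in which step was lowest. Their roles are known mainly from yeast and mammalian homologs. The lipid-transfer gene atg-2 had the smallest difference between the arrays of the 11. It was at -1.62 in preparation 1 and -1.58 in preparation 2 (mean -1.60 ± 0.02). These values are 32.6% and 33.4% of the reference. The transmembrane scramblase gene atg-9 was at -2.42 and -1.37 (mean -1.90 ± 0.74), 18.7% and 38.6% of the reference. Both genes were over 2-fold below the reference on each array. The gene atg-18 encodes a phosphoinositide-binding WIPI protein that works with ATG-2. It was at -0.68 in preparation 1 and -3.04 in preparation 2 (mean -1.86 ± 1.67). Its difference between the arrays, 2.35 log2 units, exceeded that of 95.3% of all genes, so its mean rests mainly on preparation 2. At 62.4% of the reference in preparation 1, atg-18 did not reach 2-fold there.

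The kinase complexes were represented by 1 gene each. The scaffold gene atg-13, previously called epg-1, encodes the partner of the UNC-51 kinase. It was at -1.10 in preparation 1 and -0.88 in preparation 2 (mean -0.99 ± 0.16), which is 46.5% and 54.5% of the reference. The Beclin homolog bec-1, a subunit of the VPS-34 lipid kinase complex, was at -0.72 and -1.43 (mean -1.08 ± 0.50), which is 60.5% and 37.1%. Each of these genes was past 2-fold on 1 array only, atg-13 in preparation 1 and bec-1 in preparation 2. Other genes of the lipid kinase complex were measured too, outside the naming rule. In preparation 1 and preparation 2 vps-34 was at -0.48 and -1.46, epg-8 at -0.58 and -1.20, and vps-15 at 0.59 and -0.88. The sign of vps-15 thus differed between the arrays. RefSeq places the protein-coding gene D2007.1 across part of the atg-13 span. D2007.1 had log2 ratios of -0.08 and 0.74 on the preparation 1 and preparation 2 arrays.

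The conjugation genes lay closest to the reference, with a median over 4 genes of -0.48 in preparation 1 and -0.76 in preparation 2. ATG-7 is the E1-like enzyme that activates the ubiquitin-like proteins. In preparation 1 atg-7 had a ratio of 0.27 and in preparation 2 of -1.04 (mean -0.39 ± 0.92). ATG-10 is the E2-like enzyme of the ATG-12 homolog LGG-3. In preparation 1 atg-10 had a ratio of -0.91 and in preparation 2 of 0.56 (mean -0.18 ± 1.04). Neither gene had a settled sign, and the arrays ordered them in opposite ways. The atg-10 span, the shortest of the 11 at 666 base pairs, overlaps the protein-coding gene piga-1, which had ratios of -0.31 and -0.29.

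The worm has a pair of homologs of ATG16, the scaffold that brings the conjugation enzymes to the membrane. In preparation 1 atg-16.1 had a ratio of -0.35 and in preparation 2 of -0.49 (mean -0.42 ± 0.10), or 78.3% and 71.3% of the reference. That of atg-16.2 was -0.60 and -1.66 (mean -1.13 ± 0.75), or 66.1% and 31.7%. On each array atg-16.2 lay below atg-16.1, by 0.24 and 1.17 log2 units. In addition to the naming rule, and after its value was seen, lgg-3 is given as the protein that ATG-7 and ATG-10 act on. The log2 ratio of lgg-3 in preparation 1 was -0.52 and in preparation 2 1.58 (mean 0.53 ± 1.49), with the same change of sign between the arrays as atg-10.

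In the order of their means the genes ran from lgg-2 through atg-9, atg-18, atg-2, atg-16.2, bec-1, lgg-1, atg-13, atg-16.1 and atg-7 to atg-10. Of the 10 pairs of neighbours in this order, 9 had overlapping ranges over the arrays. The exception was the pair of atg-13 and atg-16.1. The ranges of atg-7 and atg-10 overlapped that of atg-13, so this gap does not divide the members as a whole. The arrays differed by more than 1 log2 unit for 5 of the 11 genes, and for 30.9% of all genes. Across the 11 genes the arrays correlated at r = 0.18, with the reference RNA in common. The lower array was preparation 2 for 6 genes and preparation 1 for 5.

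**Figure D2:**
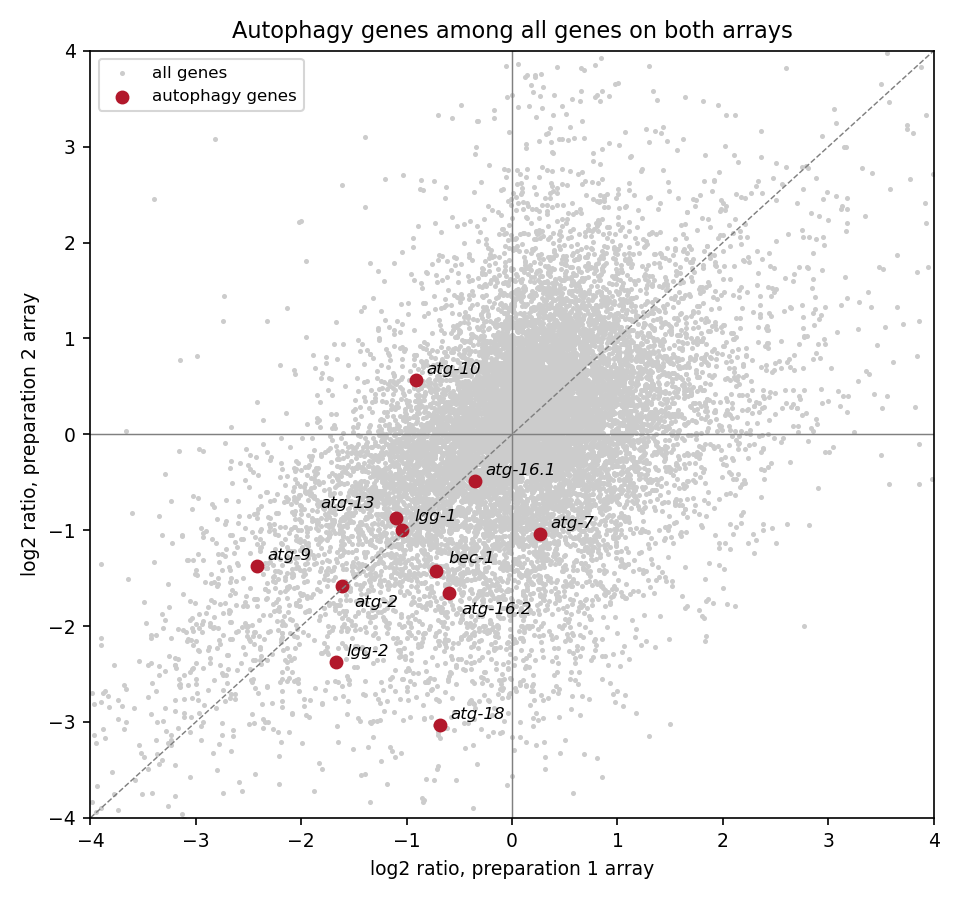
Log2 ratio on the preparation 1 array (horizontal axis) against the preparation 2 array (vertical axis) for all genes in grey and the 11 autophagy genes in red; the dashed line marks equal values, and 189 genes beyond 4 in either direction fall outside the axes. Of the autophagy genes 9 lie in the lower left field, atg-7 lies to the right of it and atg-10 above it.

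At least 2-fold below the reference on both arrays were 3 of the 11, lgg-2, atg-9 and atg-2, and none was 2-fold above on both. The same held for 7.35% of all genes below and 4% above. On 1 array at a time, 5 of the autophagy genes were at least 2-fold below in preparation 1 and 7 in preparation 2, beside 14% and 17.5% of all genes. In the limma fit over all 14777 genes with Benjamini-Hochberg adjustment, 0 of the 11 passed a threshold of 0.05, while 1.86% of all genes did, 1.5% lower and 0.365% higher. At an unadjusted p under 0.05, 8 of the 11 were lower and 0 higher, beside 10.9% and 7.78% of all genes. The lowest limma adjusted p was 0.0899, for lgg-2, and the highest was 0.868, for atg-10. After quantile normalization lgg-2 passed, with a limma adjusted p of 0.0429. Since these are the values with which the group was put forward, nothing is read from the counts. Simulated data were made with 200 of the 14777 genes set to change. There the limma test found 10.5% of genes set to change by 2 log2 units and 61.6% of those set to change by 3. In the measured data 18.7% of all genes had an unadjusted p under 0.05. Adjusted p-values depend on the share of genes that change, so the simulated percentages are not the power of this comparison. Nothing is read from them about the 0 of 11.

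The 11 genes lie on 5 chromosomes, 3 each on II and IV, 2 each on V and X and 1 on III. Their spans run from 666 base pairs for atg-10 to 10274 for atg-9. Across the 11 genes log10 span and mean ratio correlated at r = -0.47 (-0.42 in preparation 1 and -0.33 in preparation 2), which is given as a description, since lgg-2 has a short span of 1708 base pairs and the lowest mean. After correction of each array for gene span the autophagy median was -1.08, and atg-2 and lgg-2 were at least 2-fold below on both arrays.

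Genes that act with the 11 were described from 7 lists, which hold 117 measured genes. Of the 117, 59 were below 0 on both arrays and 24 above, beside 30.8% and 37% of all genes. Their median was -0.46, with -0.16 in preparation 1 and -0.78 in preparation 2, so it rests mainly on preparation 2. In the limma fit over all genes 1 of the 117 was lower at the threshold and 0 were higher, beside 1.5% and 0.365% of all genes. The rest did not pass. At an unadjusted p under 0.05 there were 26, or 22.2%, beside 18.7% of all genes. Of these, 20 were lower, which is 17.1% of the 117, beside 10.9% of all genes. The 26 comprised 4 of the other autophagosome genes, 2 receptor and mitophagy genes, 4 nutrient signalling genes, 1 transcription factor gene, 2 fusion genes, 11 lysosomal genes and 2 vacuolar ATPase genes. The autophagosome genes outside the naming rule had the nearest median, -0.97 over 9 genes (-0.66 in preparation 1 and -0.98 in preparation 2). Of these, 6 were below 0 on both arrays and 0 above, and 0 passed the test. They included epg-7, the homolog of the scaffold FIP200, at -2.53 and -0.98 (mean -1.76 ± 1.10), and the tether gene epg-5 at -1.68 and -0.78 (mean -1.23 ± 0.63).

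Cargo receptors and mitophagy genes had a median of -0.42 over 9 genes (-0.52 in preparation 1 and -0.11 in preparation 2), and 0 passed. The lowest were allo-1, the receptor for paternal organelles in the embryo, at -1.32 in preparation 1 and -2.99 in preparation 2, and ikke-1, which encodes the kinase that acts with it, at -0.96 and -2.36. Nutrient signalling genes had a median of -0.54 over 17 (-0.05 in preparation 1 and -0.78 in preparation 2), with 9 below 0 on both arrays and 3 above, and 0 passed. The AKT kinase gene akt-1 was at -1.11 and -3.37, and daf-15, the worm Raptor of the TOR complex, at -1.34 and -1.10. The 13 transcription factor genes had a median of -0.67 (-0.16 and -0.68), with 9 below 0 on both arrays and 2 above, and 0 passed. The largest were daf-16, the FOXO factor of insulin signalling, at -0.09 and -2.50, and hsf-1, the heat shock factor, at -0.19 and -2.03. Both rest on preparation 2.

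Genes of fusion with the lysosome had a median of -0.56 over 20 that rests on preparation 2 (-0.09 in preparation 1 and -0.90 in preparation 2), with 10 below 0 on both arrays, 4 above and 0 past the test. The tethering gene vps-39 was at -0.90 in preparation 1 and -2.49 in preparation 2, whereas the SNARE gene vti-1 was at 1.46 and 1.61. Lysosomal genes lay on both sides of 0, with a median of -0.41 over 31 (-0.19 and -0.92), 17 below 0 on both arrays, 9 above and 0 past the test. The hexosaminidase gene hex-1 was at -2.09 and -2.92, and ncr-2, a homolog of the Niemann-Pick cholesterol transporter, was at 2.06 and 2.19. The paralog ncr-1 lay on the other side of 0, at -1.73 and -1.07. The vacuolar ATPase, the proton pump that acidifies lysosomes, was the 1 list with a median above 0, at 0.40 over 18 genes. That median was 0.79 in preparation 1 and -0.30 in preparation 2, so its sign was not the same on both arrays. Within this list an H subunit gene, vha-18, was lower, at -3.11 and -2.76 (mean -2.93 ± 0.25, limma adjusted p = 0.0400). The other 17 genes did not pass. With log2 ratios limited to 5 the limma adjusted p of vha-18 was 0.0549. A second H subunit gene, vha-15, was at 0.49 in preparation 1 and -1.99 in preparation 2.

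**Figure D3:**
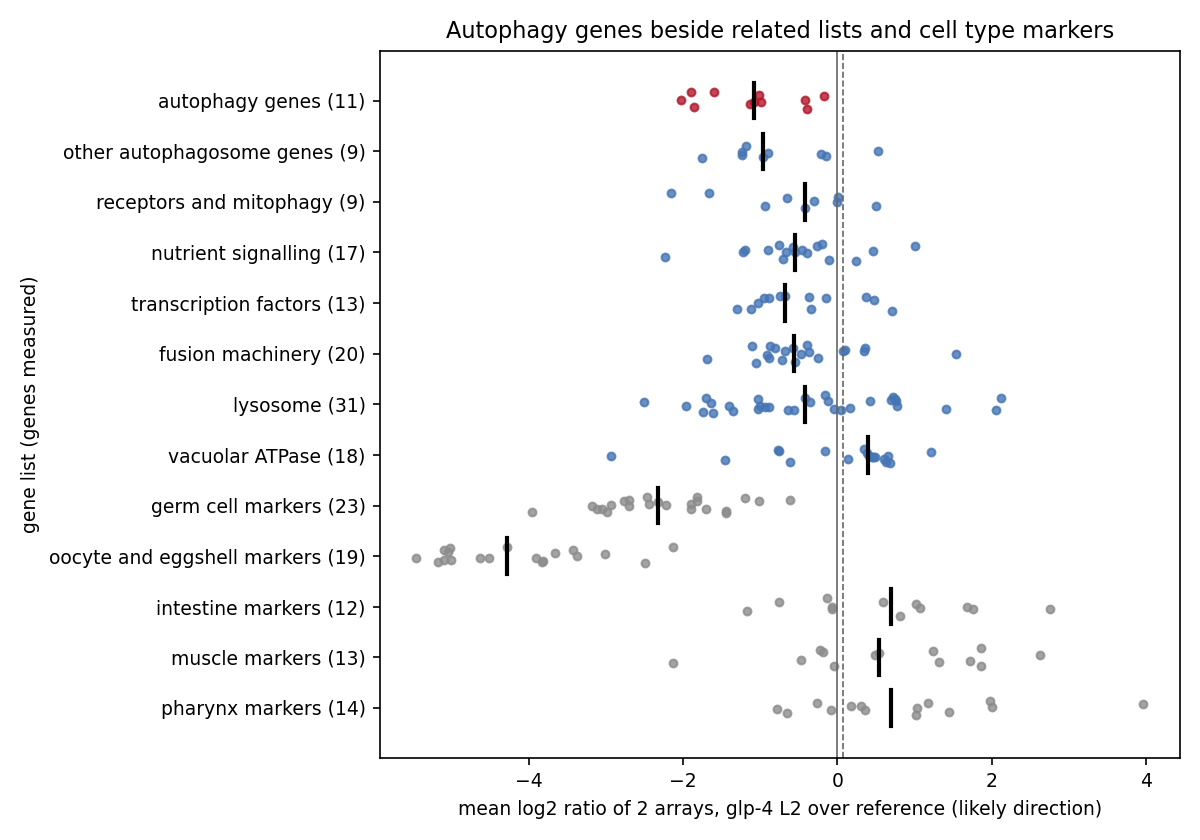
Mean log2 ratio of both arrays (horizontal axis, glp-4 L2 over reference, likely direction) for every measured gene of the autophagy group (red), 7 related lists (blue) and 5 lists of cell type markers (grey); black bars are list medians, the dashed line is the median of all genes, and the number measured stands in brackets. The autophagy median (-1.08) lies between that of the germ cell markers (-2.33) and those of the intestine, muscle and pharynx markers (0.70, 0.54 and 0.69). The ranges of these lists overlap that of the autophagy genes. Medians of related lists lie there too, such as the other autophagosome genes (-0.97) and lysosomal genes (-0.41).

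Markers of germ cells and gametes lay below 0 as the autophagy genes did, with lower medians. Of 23 germ cell markers, 22 were below 0 on both arrays, with medians of -2.05 in preparation 1 and -2.51 in preparation 2 and means between -3.95 and -0.61. In the limma fit 8 of them passed, all lower, while 1.5% of all genes passed as lower. Of 19 oocyte and eggshell markers, 18 were below 0 on both arrays (medians -4.61 and -3.97) and 16 passed, all lower. Somatic lists were mixed. The medians in preparation 1 and preparation 2 were 1.20 and 0.31 for 12 intestine markers, 1.06 and 0.41 for 13 muscle markers, and 0.96 and -0.09 for 14 pharynx markers. Above 0 on both arrays were 6 of the intestine, 7 of the muscle and 5 of the pharynx markers, beside 37% of all genes. Below 0 on both were 2, 2 and 3 of them in that order, beside 30.8% of all genes. In preparation 2 alone 9 of the 14 pharynx markers were below 0. In each somatic list 1 gene was higher in the limma fit and 0 were lower, beside 0.365% and 1.5% of all genes. The part of the germ cells and gametes of the reference in the autophagy ratios was not tested.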

How the data were processed

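Values deposited by the authors were taken as log2 ratios of the channels, because their base-2 antilogs fell on steps of 0.001 (tolerance 0.002 of a step) for 99.1% of the preparation 1 values and 98.8% of the preparation 2 values. How the authors corrected background and scaled the arrays is not given in the labels. The table lists 21632 probes, of which GEO's platform annotation gives 1 gene to 16450, several to 247 and none to 4935. Names were updated by Entrez ID through RefSeq (WBcel235), which held 16360 of the 16450. Probes of a gene were averaged, and genes with a value on both arrays were kept.

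Values were used as deposited. Each gene's mean was tested against 0 with limma 3.58.1 (R 4.3.3, lmFit and eBayes) and Benjamini-Hochberg adjustment over 14777 genes. With 2 arrays each gene has 1 residual degree of freedom and the fit leans on a prior of 4.52. The spread of the reference itself does not enter, since it counts as 1 RNA. The test was tried on 20 simulated tables with 200 changed genes, in which 11.5% of calls were false. Genes named are all members, and from each related list those past the test or otherwise the 2 largest mean ratios. Named outside this rule are lgg-3, vps-34, vps-15, epg-8, ncr-1 and vha-15. So are D2007.1 and piga-1, which overlap the span of a member. Members and lists were chosen with earlier results of these data known. Alternatives were array centring, quantile normalization, a limit on ratios, a gene span correction, other uses of probes, and leaving out each array.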

Additional observations from a re-analysis of the deposited data

How the results depend on the processing

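All 11 autophagy genes kept a mean below 0 under the 6 alternatives that keep both arrays, and the autophagy median lay between -1.14 and -1.07. On 1 array alone it was -1.37 without preparation 1 and -0.91 without preparation 2. Then atg-10 was at 0.56 without preparation 1 and -0.91 without preparation 2, and atg-7 at -1.04 and 0.27. The genes at least 2-fold from the reference numbered 3 on both arrays and 5 to 7 on 1 array. On both arrays they numbered 4 after centring, when lgg-1 was added, and 2 after correction for gene span, when atg-9 dropped out. No autophagy gene passed the limma test in any setting except lgg-2 after quantile normalization (1 gene). The number of all genes past it was 275, against 467 after centring, 614 after quantile normalization, 492 after correction for gene span, 178 with 1 probe per gene and 140 with ratios limited to 5. Related genes past it numbered 1, against 2 after centring (hex-1 and vha-18), 3 after quantile normalization or span correction (with ncr-2) and 0 with limited ratios. The yolk median was -5 with limited ratios, by construction, and -6.60 with probes of several genes kept. Other causes were not tested. No paired analysis was possible because there is 1 group. Depth is unknown without intensities.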
